A study of Mus musculus with 7 samples.

Results

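The interferon-gamma induced GTPases described here are 10 genes chosen by symbol: Gbp2, Gbp3, Gbp5, Gbp7, Gbp9, Iigp1, Igtp, Irgm1, Irgm2 and Ifi47. Of these 10, 7 were listed among the 15155 genes of the donor myeloid table. Gbp9, Igtp and Ifi47 were not analysed in donor cells. All 10 were listed in the keratinocyte table of 26383 genes and in the host table of 23737 genes.

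Interferon-gamma, a cytokine made by T cells and natural killer cells, binds a receptor built from IFNGR1 and IFNGR2, and the kinases JAK1 and JAK2 then pass the signal on to the nucleus. The promoters of its target genes hold gamma-activated sites (GAS), and interferon regulatory factors such as IRF1 bind interferon-stimulated response elements (ISRE). The guanylate-binding proteins (the Gbp genes) and the immunity-related GTPases (Iigp1, Igtp, Irgm1, Irgm2 and Ifi47) are among the targets of this pathway, and both families assemble on the membranes of vacuoles that hold intracellular microbes. Iigp1 and Ifi47 encode effectors of the second family, whereas Irgm1, Irgm2 and Igtp encode regulators that sit on the membranes of the cell itself.

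Single-cell RNA sequencing had been done on cells sorted from the epidermis of male CD45.2 C57BL/6 mice, 3 weeks after lethal irradiation and transplantation of bone marrow from female CD45.1 C57BL/6 donors. Donor CD11b+MHCII+ myeloid cells came as 3 libraries labelled bone marrow transplant (donor BMT 1, 2 and 3) and 1 library labelled bone marrow transplant plus T cells (donor BMT + T cells 4). CD45-negative host keratinocytes came as 1 library under each label, and host CD11b+MHCII+ cells as 1 library labelled BMT. The T cells were CD4 cells and CD8 Matahari cells, which carry a transgenic receptor for a male antigen. The design text gives T cells to all recipients and the sample labels give them to some, so the contrasts of T cell treatment below are between labels. Cells of pooled mice went into the libraries. The study describes separate sorting experiments for the donor cells, and no label says which donor library came from which.

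The donor libraries held 2572, 8382, 226 and 719 cells at median depths of 7022 to 13387 UMIs (unique molecular identifiers, the counted transcripts) per cell, the keratinocyte libraries 2836 and 2590 cells and the host library 781 cells. Library pairs shared at most 7 cell barcodes. The summed level of the myeloid markers was 361 to 562 UMIs per 10000 UMIs of the cell (CP10K) in the donor libraries, against 0.0781 to 0.109 for the 8 listed T cell markers and 0.501 to 1.35 for the 5 listed keratinocyte markers. In the keratinocyte libraries, the 8 keratinocyte markers summed to 544 and 552 CP10K. The host library departed from its label in part: its cluster 5 carried 7 of 8 keratinocyte markers at a summed 398 CP10K, and its cluster 6 carried 9 of 10 T cell markers at 176 CP10K.

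Promoter sequence from RefSeq (build GRCm38.p6) was read for 8 of the members, all but Gbp9 and Iigp1. It is shown here because the members are known targets of a shared pathway that reads such promoter letters. The counts below do not cover Gbp9 or Iigp1. The letters GAAA and GAAA with any 2 bases between them, the core of an ISRE, were searched on both strands from 250 bases before to 50 bases after each start. They were found in 7 of the 8 members, against 3.44% of all 32851 promoters. The GAS letters, TTC and GAA with any 3 bases between them, were found in 4 of the 8, against 8.30% of all promoters. The 2 ISRE matches of Gbp3 overlap each other, as do the 2 of Irgm1, and no ISRE match overlaps a GAS match. Ifi47 and the second start of Gbp3 held neither spelling. Bases upstream of the start are printed, with the matched letters in capitals. The last base printed lies next to the start, the first 120 bases before it, or 170 bases before it for Gbp5.
Gbp2, chr3:142620543-142620662, plus strand: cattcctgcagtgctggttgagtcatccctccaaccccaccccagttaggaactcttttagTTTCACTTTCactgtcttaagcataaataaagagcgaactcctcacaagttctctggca
Gbp3, chr3:142559924-142560043, plus strand: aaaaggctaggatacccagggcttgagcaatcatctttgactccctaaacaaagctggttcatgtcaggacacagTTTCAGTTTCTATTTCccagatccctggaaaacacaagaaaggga
Gbp5, chr3:142496764-142496933, plus strand: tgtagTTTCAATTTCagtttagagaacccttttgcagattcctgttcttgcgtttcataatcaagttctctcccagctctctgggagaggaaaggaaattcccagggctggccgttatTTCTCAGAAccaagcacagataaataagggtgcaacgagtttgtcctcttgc
Gbp7, chr3:142530216-142530335, plus strand: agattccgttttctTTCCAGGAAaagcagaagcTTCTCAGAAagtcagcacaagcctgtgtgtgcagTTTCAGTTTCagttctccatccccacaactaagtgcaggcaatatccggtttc
Igtp, chr11:58199436-58199555, plus strand: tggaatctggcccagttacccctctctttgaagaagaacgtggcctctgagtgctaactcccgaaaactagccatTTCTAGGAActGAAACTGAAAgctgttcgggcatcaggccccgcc
Irgm2, chr11:58214857-58214976, plus strand: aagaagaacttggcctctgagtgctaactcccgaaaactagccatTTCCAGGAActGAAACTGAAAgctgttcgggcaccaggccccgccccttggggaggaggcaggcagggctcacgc
Irgm1, chr11:48871421-48871540, minus strand: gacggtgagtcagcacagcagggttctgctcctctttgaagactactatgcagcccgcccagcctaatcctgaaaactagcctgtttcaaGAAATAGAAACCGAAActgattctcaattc

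In the Gbp2, Gbp3 and Gbp7 windows the ISRE letters began 39 to 59 bases before the start, and in the Igtp, Irgm1 and Irgm2 windows 24 to 64 bases before it. Gbp5 held them farther out, 165 bases before the start, with GAS letters at 52 bases and again at 245 bases, outside the bases printed. The Igtp and Irgm2 promoters shared an identical stretch of 61 bases, whereas Gbp3 and Gbp7 shared 13 at most. Igtp (chr11:58199556-58207592) and Irgm2 (chr11:58214977-58222783) also lay close together, and 10.2% of the 31-base words of Irgm2 transcripts occurred in Igtp, so reads from the shared stretches could not be given to 1 of them. Gbp5, Gbp7, Gbp3 and Gbp2 lay in that order on chromosome 3 within chr3:142496934-142638008. Of the 31-base words of Gbp7, 13.5% occurred in another annotated gene, and for the other members this share was 2.10% to 11.7%. A match of letters is a description of sequence and does not show that a factor was bound.

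In donor cells, each of the 7 listed GTPases had its highest mean in 1 of 3 monocyte clusters, named Mono, ISG monocytes and S100a+ monocytes. Gbp2, Gbp5, Iigp1 and Irgm2 had their lowest mean in resident monocyte-derived Langerhans cells (mLC), Gbp3 and Gbp7 in Hmox1+ monocytes and Irgm1 in Mrc1+ macrophages. Values are means of CP10K over the cells of a library and an annotated cluster, for clusters with at least 20 cells in that library. Gbp2 averaged 7.72 ± 4.73 CP10K (SD, n = 4 libraries) in the Mono cluster, 6.03 ± 0.988 (n = 3) in the ISG monocytes, 2.90 ± 1.24 (n = 4) in Mrc1+ macrophages and 0.548 ± 0.297 (n = 4) in resident mLC. The migrating mLC held 3.05 ± 0.579 (n = 2), and the S100a+ monocytes, with enough cells in 1 library, held 8.58. The ranges of neighbouring clusters in this order overlapped for Gbp2, except that all ISG monocyte values lay above those of the migrating mLC.

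**Figure D1:**
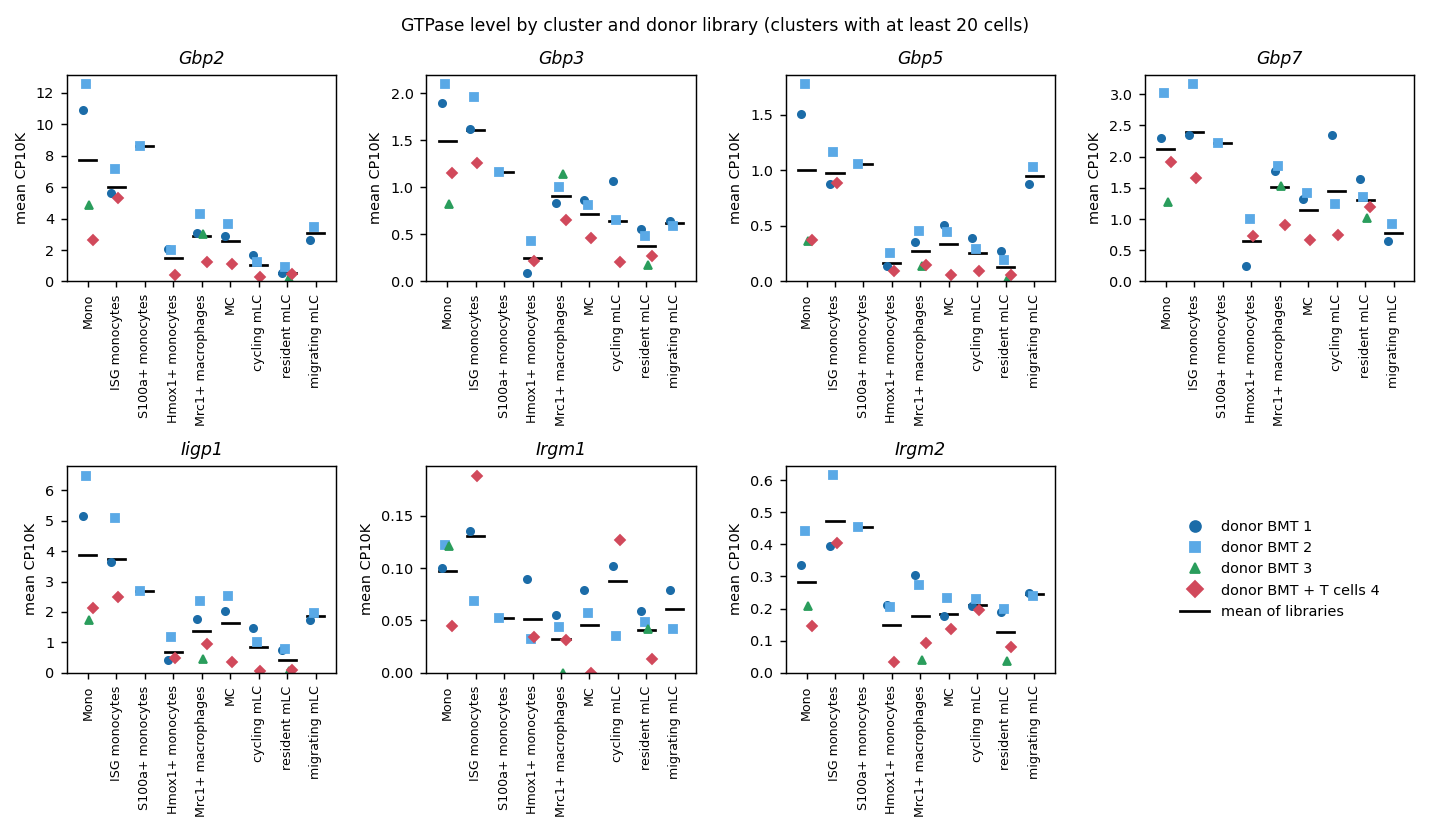
Mean CP10K (y axis, linear, from 0) of the 7 GTPases listed in the donor table in each annotated cluster (x axis); each point is 1 library and each black bar the mean of the libraries with at least 20 cells. Gbp2 in the Mono cluster runs from 2.62 to 12.5 CP10K between libraries, while in resident mLC no library is above 0.944.

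Gbp2 in Mono cells was at 10.9 CP10K in donor BMT 1, 12.5 in BMT 2, 4.87 in BMT 3 and 2.62 in BMT + T cells 4. In resident mLC of the same libraries it was at 0.562, 0.944, 0.234 and 0.451. The 2 clusters did not overlap. The T cell library was the lowest of the 4 in Mono cells, and donor BMT 3 in resident mLC.

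Iigp1 was at 5.15, 6.48, 1.72 and 2.12 CP10K in Mono cells of donor BMT 1, 2, 3 and BMT + T cells 4, and at 0.748, 0.780, 0.0636 and 0.0803 in resident mLC. The resident values of BMT 1 and 2 lay close together, and those of the other 2 libraries were far lower and rested on 15 and 47 UMIs. Gbp5, whose product is known for promoting inflammasome assembly, was at 1.504, 1.77, 0.366 and 0.373 in Mono cells and at 0.272, 0.196, 0.0152 and 0.0567 in resident mLC. For Gbp5, too, the highest resident value stayed below the lowest Mono value. Gbp3 was at 1.90, 2.10, 0.823 and 1.15 in Mono cells and at 0.559, 0.481, 0.179 and 0.272 in resident mLC, again without overlap.

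Gbp7 did not separate the 2 clusters across libraries, although within each library it was higher in Mono cells. It was at 2.29, 3.03, 1.28 and 1.92 CP10K in Mono cells and at 1.64, 1.36, 1.02 and 1.19 in resident mLC, so the 2 ranges overlapped. Its lowest levels were in Hmox1+ monocytes, at 0.653 ± 0.380 (SD, n = 3), and in migrating mLC, at 0.784 ± 0.198 (n = 2). Irgm2 averaged 0.283 ± 0.132 (n = 4) in Mono cells and 0.126 ± 0.0794 (n = 4) in resident mLC. Irgm1 was sparse in donor cells, at 0.0323 to 0.131 CP10K in the cluster means, and its mean over all of them was under the 0.1 CP10K that a gene needed to be tested.

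The share of cells with a Gbp2 or Iigp1 transcript was also lower in resident mLC. Each donor cell was thinned to 2500 UMIs. Over all donor clusters with at least 20 cells in a library, this left out 1541 of 11815 cells as too shallow. The share of cells with at least 1 Gbp2 UMI was then 77.2%, 77.8%, 48.1% and 25.9% in Mono cells of donor BMT 1, 2, 3 and BMT + T cells 4. In resident mLC of the same libraries it was 9.52%, 16.4%, 4.26% and 5.58%. Without thinning the shares were 91.5%, 91.0%, 62.2% and 65.1%, and 36.2%, 32.4%, 21.6% and 18.4%. For Iigp1 the thinned shares were 53.6%, 58.1%, 24.7% and 33.3% in Mono cells and 8.33%, 11.7%, 2.13% and 1.49% in resident mLC. A thinned Mono cell with Gbp2 held 1.79 to 3.83 Gbp2 UMIs on average by library, and a resident cell with Gbp2 held 1.25 to 1.60. No donor cluster is known to lack these genes, so a share due to free RNA was not measured.

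Resident mLC were compared with Mono cells to ask which GTPases differ between the start and the end of the differentiation path that the study follows. Gbp2, Iigp1, Gbp5 and Gbp3 were called lower in resident mLC, and Irgm2 and Gbp7 were not called. The test was limma on log2(CP10K + 0.1) with the library as a block, and a gene was called at a Benjamini-Hochberg adjusted p under 0.05 over all genes tested and an absolute log2 fold change above 1. The clusters had been built by the authors from these same values, so the calls describe the annotated clusters and are no independent evidence. Of 7267 genes tested, 8.04% were called lower in resident mLC. The pseudocount of 0.1 makes the fold changes of low genes smaller than the ratio of their means.

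Gbp2 was lower in resident mLC than in Mono cells (log2 fold change -3.46, SE 0.286, adjusted p = 2.07e-09, lower in 4 of 4 libraries). Iigp1 stood at -3.16 on this scale (SE 0.352, adjusted p = 3.52e-07, lower in 4 of 4). For Gbp5 the value was -2.10 (SE 0.253, adjusted p = 4.44e-07) and for Gbp3 it was -1.75 (SE 0.287, adjusted p = 3.47e-05), both lower in 4 of 4 libraries. Irgm2 passed the p threshold but not the fold, at -0.77 (SE 0.220, adjusted p = 0.00893). Gbp7 passed neither, at -0.63 (SE 0.280, adjusted p = 0.0895), although it too was lower in 4 of 4 libraries. The median over all genes tested was 0.14. With a pseudocount of 1 in place of 0.1, Gbp3 and Gbp5 no longer passed the fold (-0.84 and -0.75), and with 0.01 Irgm2 did (-1.23, adjusted p = 0.0149).

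**Figure D2:**
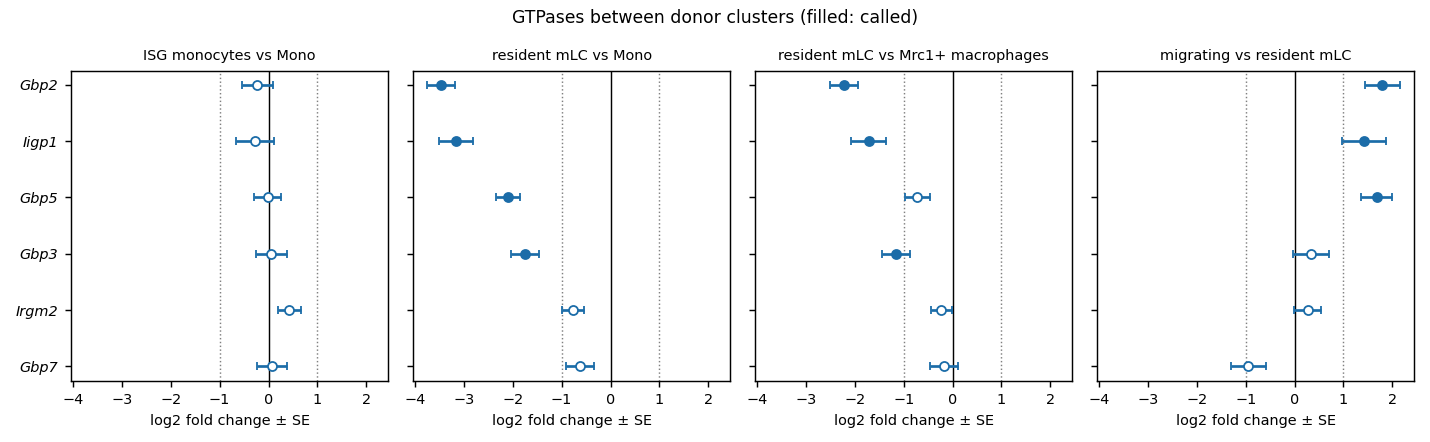
Log2 fold change (x axis) with its standard error for the 6 GTPases tested (y axis) in 4 comparisons of donor clusters; filled points were called, and dotted lines mark an absolute log2 fold change of 1. Gbp2 runs from -3.46 in resident mLC against Mono to 1.79 in migrating against resident mLC, while all 6 points of the ISG comparison lie within the dotted lines.

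Against Mrc1+ macrophages, a cluster named for the mannose receptor gene, 3 GTPases were called lower in resident mLC. They were Gbp2 (log2 fold change -2.21, SE 0.286, adjusted p = 2.29e-06), Iigp1 (-1.72, SE 0.352, adjusted p = 0.000644) and Gbp3 (-1.15, SE 0.287, adjusted p = 0.00303), each lower in 4 of 4 libraries. Gbp5 stood at -0.72 (adjusted p = 0.0311), Irgm2 at -0.23 (adjusted p = 0.453) and Gbp7 at -0.18 (adjusted p = 0.667), and none of these was called. Of all genes tested, 8.11% were called lower and 5.75% higher in this comparison. Gbp3 lost its call without donor BMT 3, at -0.82 (adjusted p = 0.0458, range over all settings 9.75e-05 to 0.0458). With a pseudocount of 1, Iigp1 and Gbp3 passed the p threshold but not the fold (-0.72 and -0.48).

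Migrating mLC held more Gbp2, Gbp5 and Iigp1 than resident mLC. Only donor BMT 1 and 2 had at least 20 migrating cells. Gbp2 was at 2.64 and 3.46 CP10K there, Gbp5 at 0.878 and 1.03, and Iigp1 at 1.75 and 1.96, each above the resident cells of the same library. The calls were for Gbp2 (log2 fold change 1.79, SE 0.362, adjusted p = 0.00102), Gbp5 (1.68, SE 0.320, adjusted p = 0.000482) and Iigp1 (1.42, SE 0.446, adjusted p = 0.0285), beside 5.11% of all genes called higher and 6.91% called lower. Gbp3 (0.34, adjusted p = 0.537) and Irgm2 (0.26, adjusted p = 0.531) were not called. Gbp7 pointed the other way, at -0.95 (SE 0.354, adjusted p = 0.0606), with 0.644 and 0.925 CP10K in migrating cells against 1.64 and 1.36 in resident cells. All 3 calls were lost without donor BMT 2, where 1 library with migrating cells was left and its spread was taken to be that of the other clusters. Gbp2 then stood at 1.77 (adjusted p = 0.112), Gbp5 at 1.57 (adjusted p = 0.108) and Iigp1 at 1.53 (adjusted p = 0.296), the upper ends over all settings being 0.112, 0.108 and 0.298. Iigp1 also lost its call without BMT 1 (1.46, adjusted p = 0.0865) and without BMT 3 (1.38, adjusted p = 0.0595).

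No GTPase was called between ISG monocytes, a cluster that the authors named for interferon-stimulated genes, and Mono cells. Among the 6 tested, 0 passed, and 0 of them had an unadjusted p under 0.05, while limma called 1.69% of all 7267 genes and gave 772 an unadjusted p under 0.05. Iigp1 was at 3.64, 5.10 and 2.48 CP10K in ISG monocytes of donor BMT 1, 2 and BMT + T cells 4, and at 5.15, 6.48 and 2.12 in their Mono cells. Its log2 fold change was -0.28 (SE 0.389, adjusted p = 0.953), and those of Gbp2, Gbp3, Gbp5 and Gbp7 were -0.23, 0.06, -0.02 and 0.08 with adjusted p of 0.951 to 0.996. Irgm2 was higher in 3 of 3 libraries, at 0.43 (SE 0.243, adjusted p = 0.593). The signs of Gbp2, Gbp3, Gbp5 and Gbp7 were not the same in all settings of the analysis.

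The same comparison was read for a type I interferon list of 25 genes. The authors defined the ISG cluster by Isg15, Ifit2 and Ifit3, which this list holds. Calls on the list thus describe the annotation and are no independent evidence. Of 22 tested, 8 were called higher in ISG monocytes and 0 lower, against 1.10% of all genes called higher. They included Rsad2 (viperin, log2 fold change 2.43, adjusted p = 7.22e-05), Ifit3 (2.00, adjusted p = 0.0104) and Ifit1 (1.84, adjusted p = 0.0121). The median over the list was 1.11, against -0.02 over all genes. Of 34 tested genes of a 42-gene interferon-gamma pathway list, 1 was called, the chemokine gene Cxcl16 (1.22, adjusted p = 0.00371), with a median of 0.03. Irf1 stood at -0.78 (adjusted p = 0.364).

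Between resident mLC and Mono cells, 9 of the 34 tested pathway genes were called lower and 0 higher, with a median of -0.74. Over all genes tested, 8.04% were called lower and the median was 0.14. Nos2, which makes nitric oxide (log2 fold change -3.77, adjusted p = 0.000232), the chemokine gene Cxcl9 (-3.51, adjusted p = 0.000443) and Cd274, which encodes PD-L1 (-3.38, adjusted p = 1.59e-07), had the lowest values. The receptor gene Ifngr1 was called lower (-1.63, adjusted p = 0.000236), and so were Irf1 (-1.83, adjusted p = 4.19e-05) and Socs1, a feedback inhibitor of the pathway (-1.18, adjusted p = 0.00479). Ifngr2 (-0.74, adjusted p = 0.001004) and Jak1 (-0.61, adjusted p = 0.00720) passed the p threshold but not the fold. Jak2 (0.24, adjusted p = 0.563) and Nlrc5, the regulator of major histocompatibility complex (MHC) class I genes (-0.64, adjusted p = 0.235), passed neither. Of the type I list, 12 of 22 were called lower and 0 higher, with a median of -1.03, led by Zbp1 (-3.38), Ifi204 (-1.97) and Ifi209 (-1.65).

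Few further GTPases of these families could be tested. Of 16 relatives fixed as a list, 8 were listed in the donor table and 2 were tested. Both were called lower in resident mLC than in Mono cells, Gm4951 (log2 fold change -1.97, adjusted p = 0.00517) and Gbp8 (-1.38, adjusted p = 7.59e-05). Neither was called in the other comparisons.

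Against Mrc1+ macrophages, 6 of 34 pathway genes were called lower in resident mLC and 0 higher (median -0.43), with Cd274 (-3.34), Nos2 (-2.67) and Cxcl9 (-2.50) lowest. Over all genes tested, 8.11% were called lower and 5.75% higher. Irf1 stood at -0.82 (adjusted p = 0.0412) and Ifngr1 at -0.99 (adjusted p = 0.0169), neither of them called. The type I list had 5 called lower, among them Oasl1 (-1.89), Zbp1 (-1.59) and Rsad2 (-1.38), and 1 called higher, Isg20 (1.23), with a median of -0.25 against 0.12 over all genes. In migrating against resident mLC, 9 of 34 pathway genes were called higher and 0 lower, including Cd274 (3.36), Cxcl9 (2.52, adjusted p = 0.0380), Socs3 (1.41) and Irf1 (1.19, adjusted p = 0.0306). Of the type I list, 4 were called higher there, led by Oasl1 (2.03), Rsad2 (1.83) and Zbp1 (1.36), and 1 lower, Oas2 (-1.23). The medians were 0.49 for the pathway list and 0.31 for the type I list, against -0.26 over all genes. Of those, 5.11% were called higher and 6.91% lower in migrating mLC.

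Across the 27 means of a donor library and cluster, the tested GTPases varied together to different degrees. Pearson's r with the mean of the other 5 was 0.92 for Iigp1, 0.91 for Gbp5, 0.89 for Gbp3, 0.87 for Gbp2, 0.76 for Irgm2 and 0.68 for Gbp7. The closest pair was Gbp5 with Iigp1 (r = 0.92) and the most distant Gbp7 with Irgm2 (r = 0.51). Among 7261 other genes, those whose levels were most like the mean of the 6 included AW112010 (r = 0.91), Naaa (0.90), H2-K1 (0.89), Socs1 (0.88), Cxcl9 (0.87), Dtx3l (0.87), Aif1 (0.87), Batf2 (0.86) and Tapbp (0.85). These are descriptions across points that share libraries and depth.

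The donor library labelled BMT + T cells was compared with the 3 donor BMT libraries within the same 3 clusters, Mono, Mrc1+ macrophages and resident mLC, weighted equally. No GTPase was called. In limma, 0 of 7345 genes were called (0%) and 352 had an unadjusted p under 0.05. Averaged over the 3 clusters, Gbp2 was at 4.84, 5.92 and 2.70 CP10K in donor BMT 1, 2 and 3 and at 1.45 in BMT + T cells 4 (log2 fold change -1.07, SE 0.414, adjusted p = 0.949). Gbp2 thus lay below all 3 BMT libraries, as did 20.3% of all genes tested and, below the threshold for testing, Irgm1. With 1 library under the second label, its spread was taken to be that of the BMT libraries. Of the pathway list, 0 of 35 tested genes were called, with a median of -0.37 against 0.05 over all genes, and Jak2 (-1.23), Socs1 (-0.81) and Irf1 (-0.55) each lay below all 3 BMT libraries. Of the type I list, 0 of 21 were called, with a median of -0.27.

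Iigp1 was at 2.56, 3.20 and 0.742 CP10K in the BMT libraries and at 1.05 in BMT + T cells, so that the T cell library lay between BMT 3 and the other two. Its log2 fold change was -0.89 (SE 0.892, adjusted p = 0.955). Gbp5 was at 0.711, 0.807 and 0.173 against 0.192, and Irgm2 at 0.276, 0.305 and 0.0950 against 0.106. For both of these genes, donor BMT 3 and BMT + T cells 4 lay close together and below BMT 1 and 2. Gbp7 was at 1.90, 2.08 and 1.27 against 1.34, and Gbp3 at 1.10, 1.20 and 0.715 against 0.689. On the log2 scale used for the test, Gbp3 in the T cell library lay 0.04 above BMT 3.

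**Figure D3:**
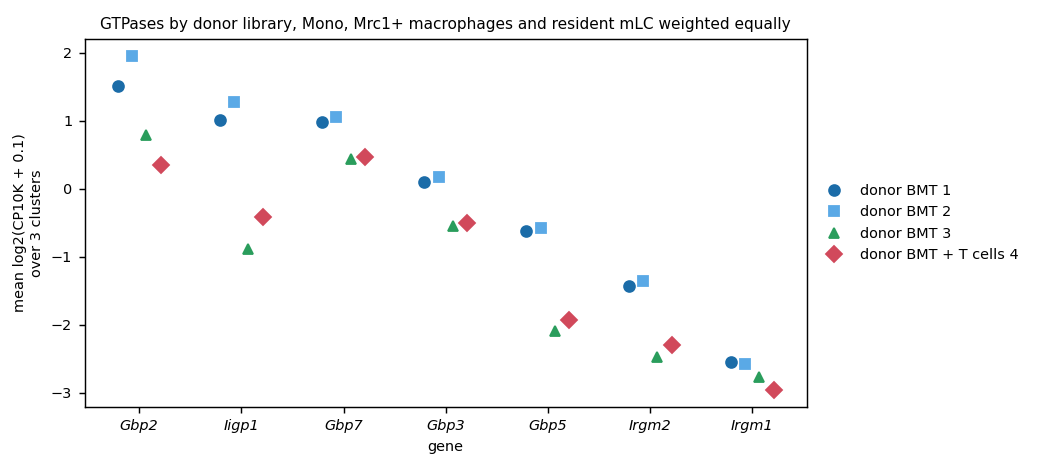
Mean of log2(CP10K + 0.1) over the Mono, Mrc1+ macrophage and resident mLC clusters (y axis) for the 7 GTPases listed in donor cells (x axis); each point is 1 library. Donor BMT 3 and BMT + T cells 4 lie below donor BMT 1 and 2 for each gene, and for Gbp2 the difference between the T cell library and BMT 3 is -0.44.

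The library names come in 2 forms, 1 shared by donor BMT 1 and 2 and another shared by donor BMT 3 and BMT + T cells 4, which was read here as the experiment although no label states it. With this as a term, the contrast rests on BMT 3 alone and gives -0.44 for Gbp2, 0.46 for Iigp1, 0.18 for Irgm2, 0.17 for Gbp5, 0.04 for Gbp3 and 0.02 for Gbp7, with 0 called among the 6. Without BMT 3, Gbp2 (-1.38, adjusted p = 0.000204), Iigp1 (-1.56, adjusted p = 5.91e-06) and Gbp5 (-1.33, adjusted p = 2.01e-05) were called lower in the T cell library, against 1.60% of 7253 genes called lower. Over all settings of this comparison, their adjusted p ran up to 1.00. The label and the experiment cannot be told apart in that fit. A change in the share of cells with a transcript and a change in its amount per cell both enter these means.

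Keratinocytes labelled BMT + T cells held more Iigp1, Gbp2 and Gbp7 than those labelled BMT. Each label has 1 library, so these are values with counting error alone and no test. Iigp1 had 595 UMIs in 2836 keratinocytes labelled BMT, or 0.214 per 10000 UMIs, and 2428 in 2590 keratinocytes labelled BMT + T cells, or 0.973 per 10000. The ratio was 4.55 (95% exact interval 4.16 to 4.98). Gbp2 had 394 and 1081 UMIs (0.142 and 0.433 per 10000, ratio 3.06, interval 2.72 to 3.44). Gbp7 had 276 and 886 UMIs (0.0992 and 0.355 per 10000, ratio 3.58, interval 3.12 to 4.11). UMIs of the same cell are not independent, and in the BMT library the 10 cells with the most Gbp2 held 41.4% of its UMIs, so the intervals are too narrow.

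These 3 were the members with a mean of at least 0.1 CP10K, which each also reached in the BMT library alone. Their log2 differences of CP10K + 0.1 were 1.70 for Iigp1, 1.18 for Gbp7 and 1.10 for Gbp2. Of 7615 genes at or above that mean, 0.315% were more than 1 higher on this scale in the BMT + T cells library, and the median of all was 0.00327. With a pseudocount of 1, the 3 differences were 0.68, 0.30 and 0.31.

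The other members were rarer. Irgm2 had 60 and 154 UMIs under BMT and BMT + T cells (ratio 2.86, interval 2.11 to 3.92), Gbp3 60 and 127 (ratio 2.36, interval 1.72 to 3.26) and Irgm1 36 and 78 (ratio 2.41, interval 1.61 to 3.69). Gbp5 had 1 and 17 UMIs (ratio 18.9, interval 2.97 to 792) and Igtp 2 and 15 (ratio 8.36, interval 1.94 to 75.3). Gbp9, with 2 and 3 UMIs, and Ifi47, with 1 and 2, were too rare for a difference to be detectable at this depth. All 10 had more UMIs under BMT + T cells, at total depths of 27817737 and 24959785 UMIs. The share of all genes with more UMIs under that label was not counted. For Gbp9 the mean over cells was lower there, at 0.00116 CP10K under BMT and 0.000811 under BMT + T cells.

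**Figure D4:**
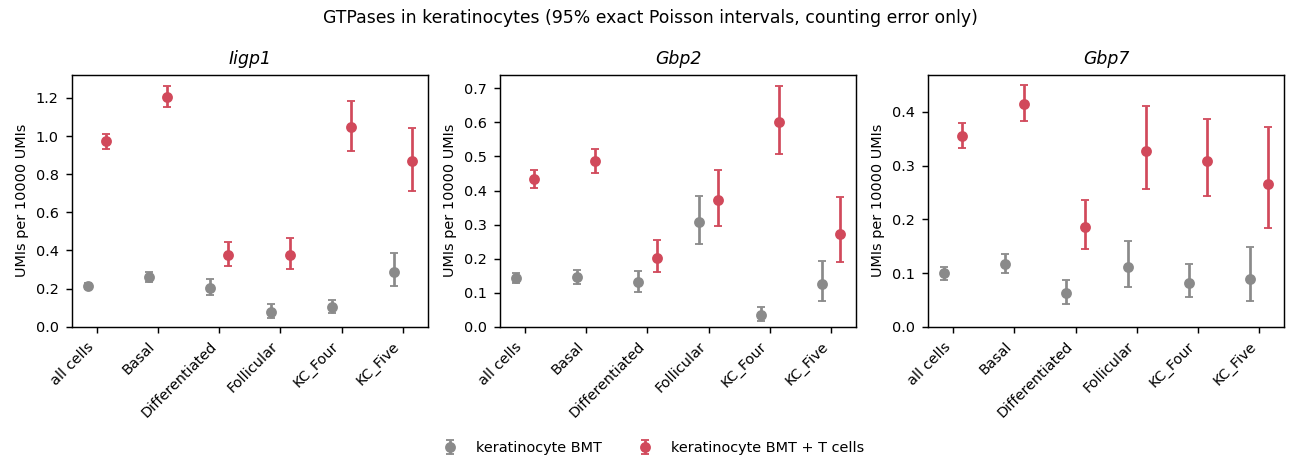
UMIs per 10000 UMIs (y axis, linear, from 0) of Iigp1, Gbp2 and Gbp7 in all keratinocytes and in the 5 annotated clusters (x axis) of the BMT library (grey) and the BMT + T cells library (red), with 95% exact Poisson intervals of the summed UMIs. Gbp2 in Follicular cells, at 0.308 and 0.371, is the pair whose intervals overlap most.

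The clusters of keratinocytes differed. In Basal cells, Iigp1 was at 0.259 UMIs per 10000 under BMT and 1.21 under BMT + T cells, and in Differentiated cells at 0.205 and 0.376. In Follicular cells it was at 0.0751 and 0.376, from 19 UMIs in 6 of 278 cells and 85 UMIs in 9 of 259 cells. The share of Follicular cells with an Iigp1 UMI was 2.16% and 3.47%, against 5.11% and 27.0% of Basal cells. In the cluster labelled KC_Four, Iigp1 was at 0.102 and 1.05. Gbp2 differed least in Follicular cells, at 0.308 and 0.371 (78 and 84 UMIs, ratio 1.20, interval 0.875 to 1.66), where the BMT library held more of it per UMI than any other BMT cluster. In KC_Four it went from 12 to 148 UMIs (0.0338 and 0.601 per 10000). Gbp7 had ratios between 2.96 and 3.78 in all 5 clusters.

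More keratinocytes held a transcript of a member under BMT + T cells. After each cell was thinned to 2500 UMIs, which left out 0 cells, at least 1 UMI of any member was found in 6.10% of BMT cells (95% Clopper-Pearson interval 5.25% to 7.04%) and 21.2% of BMT + T cells (19.6% to 22.8%). Unthinned, the shares were 13.4% and 39.8%, at median depths of 8896 and 8834 UMIs. Iigp1 was found in 2.57% and 12.5% of thinned cells, Gbp7 in 2.19% and 7.18% and Gbp2 in 2.12% and 5.48%. Unthinned cells with Iigp1 held 4.38 Iigp1 UMIs on average under BMT and 4.05 under BMT + T cells, cells with Gbp2 held 3.01 and 3.01, and cells with Gbp7 held 1.54 and 1.87. No cluster of this table is known to lack these genes, so the share from free RNA was not measured.

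The same keratinocytes tended to hold more than 1 member. Among thinned BMT + T cells, Gbp2 was found in 18.5% of 325 cells with Iigp1 (interval 14.4% to 23.1%) and in 3.62% of 2265 cells without it (2.89% to 4.47%). Under BMT the shares were 27.4% of 73 cells (17.6% to 39.1%) and 1.45% of 2763 cells (1.04% to 1.97%). Gbp7 was found in 23.4% of BMT + T cells with Iigp1 and 4.86% of those without. These pairs were chosen after their values were seen.

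Of the 33 pathway genes that reached 0.1 CP10K on average in keratinocytes, 8 were more than 1 higher on the log2 scale under BMT + T cells and 0 lower, with a median of 0.62. Cd74, the invariant chain of MHC class II (2.09), H2-Ab1 (1.94) and Cxcl9 (1.57, from 152 to 1036 UMIs) were highest. Nlrc5 had 326 and 601 UMIs (0.59) and Irf1 54 and 71. The receptor and kinase genes were close to equal, with 3341 and 3226 UMIs for Ifngr1, 868 and 792 for Ifngr2, 3521 and 3134 for Jak1 and 467 and 461 for Jak2, and Socs1 had 515 and 476. Cxcl10 had 3 and 12 UMIs, Ciita 1 and 2, Ifng 0 and 11 and Irf8 0 and 0. Of 7 type I list genes at that mean, 4 were more than 1 higher, led by Rtp4 (1.67), Ifit1 (1.19) and Isg15 (1.15). No listed relative reached the mean. A gene could reach that mean through the BMT + T cells library, as Cxcl9 did, at 0.0455 CP10K under BMT and 0.331 under BMT + T cells. How many pathway and type I genes reached it under BMT alone was not counted.

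The 10 T cell markers summed to 0.426 CP10K in the BMT and 0.355 in the BMT + T cells keratinocytes, with Cd8a at 0 in both. Trbc2 alone made up 0.408 and 0.333 of these sums, and each of the other 9 was at 0.0115 CP10K or less, some higher under BMT + T cells (Cd3d, at 0.000493 and 0.00137) and some lower (Cd3e, at 0.00186 and 0.000590). The 7 myeloid markers summed to 0.426 and 2.14, of which Cd74 and H2-Aa made up 0.306 and 0.111 under BMT and 1.63 and 0.479 under BMT + T cells, and the other 5 were rare. Of these 5, 4 were higher under BMT + T cells, with Fcer1g at 0.00540 and 0.0133, Tyrobp at 0.00116 and 0.0109, Lyz2 at 0.00138 and 0.00294 and Ptprc at 0 and 0.000918 CP10K, and Itgam was lower, at 0.000662 and 0.000250. The part of other cells in these differences was not tested.

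The host library held all 10 members, and its clusters differed in which of them they carried. Values are UMIs per 10000 UMIs with 95% exact Poisson intervals, from 1 library with no test. Its clusters carry numbers and no names in the deposited annotation. Clusters 1 to 4 held Langerhans cell markers at summed 14.6 to 52.7 CP10K, and cluster 4 also held markers of migrating cells at 37.3 CP10K, against at most 2.33 elsewhere. Of 781 host cells, 450 had at least 500 genes and at most 20% mitochondrial UMIs, the limits that the study states.

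Iigp1 was rare in clusters 1 to 3. It had 1 UMI in the 276 cells of cluster 1, 6 in the 170 of cluster 2 and 2 in the 161 of cluster 3, or 0.00881, 0.0761 and 0.0253 per 10000. When each cell counted equally, cluster 2 stood at 0.443 CP10K, and at 0.0433 in its cells within the limits. Cluster 4 had 11 UMIs (0.184, interval 0.0919 to 0.329). Cluster 5, with keratinocyte markers, had 386 UMIs in 43 cells (2.59, interval 2.34 to 2.86), which was 386 of the 432 in the library. Gbp2 followed the same order over clusters 1 to 5, with 1, 13 and 5 UMIs in clusters 1 to 3, 35 in cluster 4 (0.586, interval 0.408 to 0.815) and 127 in cluster 5 (0.852, interval 0.710 to 1.01). Gbp5 had its most in cluster 4, with 51 of 89 UMIs (0.854, interval 0.636 to 1.12), and Gbp9 also stood highest there (24 UMIs, 0.402, interval 0.257 to 0.598) and had 0 UMIs in cluster 5, where 0 allows up to 0.0201 per 10000 (3 counts of the total).

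**Figure D5:**
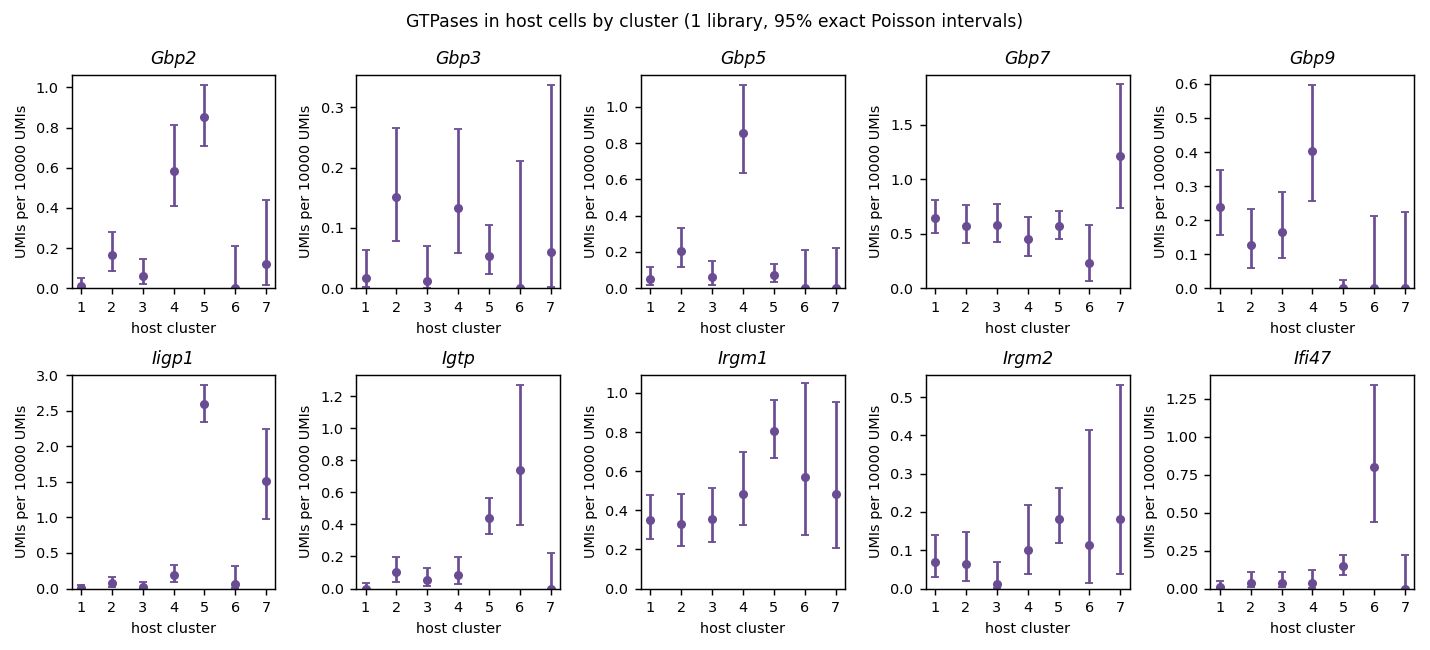
UMIs per 10000 UMIs (y axes, linear, from 0) of the 10 GTPases in the 7 clusters of the host library (x axes), with 95% exact Poisson intervals of the summed UMIs. Iigp1 stands at 2.59 in cluster 5, Gbp5 at 0.854 in cluster 4 and Ifi47 at 0.800 in cluster 6, while Gbp7 stays between 0.228 and 0.643 in clusters 1 to 6.

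Gbp7 had overlapping intervals in host clusters 1 to 5, at 0.643, 0.571, 0.582, 0.452 and 0.570 per 10000. It was at 0.228 in cluster 6 (4 UMIs, interval 0.0622 to 0.585) and at 1.21 in cluster 7 (20 UMIs, interval 0.740 to 1.87). Irgm1 lay between 0.330 and 0.485 in clusters 1 to 4 and at 0.805 (interval 0.667 to 0.963) in cluster 5. Cluster 6, with T cell markers, had 0 UMIs of Gbp2, Gbp3, Gbp5 and Gbp9 in 23 cells, where 0 allows up to 0.171 per 10000, but 13 of Igtp (0.743, interval 0.395 to 1.27) and 14 of Ifi47 (0.800, interval 0.437 to 1.34). Igtp had 0 UMIs in cluster 1 and 66 in cluster 5 (0.443, interval 0.342 to 0.563), and Ifi47 had 22 in cluster 5 (0.148). Irgm2 had 52 UMIs in all, 27 of them in cluster 5 (0.181), and Gbp3 had 32, at most 0.152 per 10000 in cluster 2. Cluster 7 had 18 cells, of which 3 were within the limits of the study, and its 25 Iigp1 and 20 Gbp7 UMIs came from cells outside them.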

How the data were processed

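RNA of single cells from mouse epidermis had been counted by UMI in 7 libraries with a 10x Genomics kit that reads the start of transcripts. The authors made the values with kallisto, bustools and Seurat, and their processing notes name GRCm38. Each deposited value is, on a natural log scale, the UMIs per 10000 of its cell with 1 added, and the deposited mitochondrial column was in percent. Undoing the log gave whole UMIs for 100% of values within a tolerance of 0.001, and so the depth of each cell. The authors state that doublets had been removed, and none was looked for here. Cluster names were taken from the authors.

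The members and lists were chosen with earlier results of these data known. CP10K was averaged by library and cluster, leaving out means of fewer than 20 cells. Testing, over every gene that reached 0.1 CP10K on average, used limma 3.58.1 in R 4.3.3 on log2(CP10K + 0.1), with trend, robust variances (statmod 1.5.0), the library as a block and all clusters in the fit. Calls needed a Benjamini-Hochberg adjusted p under 0.05 and an absolute log2 fold change above 1. In the cluster comparisons, p-values measure the spread of library-by-cluster means that is left once the library block is taken out. In the label comparison they measure the spread between the donor BMT libraries. Both spreads may be technical. On simulated data with 200 genes changed by 2 on the log2 scale, 83.5% to 91% were recovered in the comparisons simulated. The simulated noise was independent between means and held no library or experiment effect. These shares therefore do not measure the power of the real comparisons, least of all that between labels. Alternatives were other pseudocounts, no filter, means of the log values, other cell minimums, a fold threshold of 2, fewer clusters and leaving out each library. Named outside the members were 13 pathway genes, of which 1 is not reported here, for each list and direction the 3 called genes with the largest change, and the 10 genes most like the members, less that 1. Intervals and floors cover counting error only. Promoters came from RefSeq and 31-base words from GENCODE transcripts, which may differ from the annotation that the authors used. No protein sequence was used here.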

Additional observations from a re-analysis of the deposited data

Results flagged for a closer look

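For 2 of the 7 GTPases listed in both tables, Gbp2 and Irgm1, the donor library labelled BMT + T cells lay below each of the 3 donor BMT libraries while the keratinocyte library of that label lay above the other. Lying below all 3 was met by 20.3% of all genes tested in donor cells, a set that leaves out Irgm1. The share of all genes that met both conditions was not counted. Gbp2 was lower in the donor BMT + T cells library than in each of the 3 donor BMT libraries, by -1.07 on the log2 scale on average, and higher in the keratinocytes labelled BMT + T cells, by 1.10. Irgm1 was lower in donor cells by -0.32, on few UMIs, and higher in keratinocytes by 0.23. Within single clusters, Gbp2 in resident mLC was 0.72 above donor BMT 3, and Irgm1 in Mrc1+ macrophages 0.39 above it, where BMT 3 had 0 UMIs of Irgm1. The difference between donor cells and keratinocytes was not tested, since each label has 1 keratinocyte library. For Gbp3, Gbp5, Gbp7, Iigp1 and Irgm2 the donor library labelled BMT + T cells lay, on the log2 scale, above donor BMT 3 and below donor BMT 1 and 2, so that their mean differences in donor cells were also below 0.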

How the results depend on the processing

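Of the 6 members tested, 4 were called lower in resident mLC than in Mono cells, and 2 with a pseudocount of 1 or with means of the deposited log values, both of which shrink low genes. The 3 calls against Mrc1+ macrophages became 1 with a pseudocount of 1, 0 with means of log values and 1 at a fold threshold of 2. The 3 calls in migrating against resident mLC became 1, 0 and 0 under these settings, and 0 to 3 when a library was left out, with 0 without donor BMT 2. Between labels, 0 were called, and 0 to 3 when a donor BMT library was left out, with 3 without donor BMT 3. In ISG monocytes against Mono, the log2 fold changes over all settings ran from -0.77 to 0.0564 for Gbp2 and from -0.0612 to 0.17 for Gbp3. They ran from -0.51 to 0.30 for Gbp5 and from -0.0361 to 0.19 for Gbp7. Gbp3 stood at -0.0575 with at least 50 cells and -0.0612 with the 2 clusters alone, and Gbp7 at -0.0361 with the 2 clusters alone. With the experiment as a term, the label contrast was 0.0392 for Gbp3, 0.17 for Gbp5, 0.0249 for Gbp7, 0.46 for Iigp1 and 0.18 for Irgm2. Of the 3 keratinocyte differences above 1, 0 stayed so with a pseudocount of 1 or with means of log values. Without thinning, the shares of keratinocytes with any member were 13.4% and 39.8%. The summed host level of the 10 members was 3.04 UMIs per 10000 in all cells and 3.30 in the cells within the limits of the study, an alternative chosen after seeing the data. The cause of the other changes was not tested. The 2 labels share no replicate number, so the labels themselves gave no pairing. The fit with the experiment as a term, read from the library names, is the one that sets BMT + T cells 4 against donor BMT 3. The clusters were compared with the library as a block throughout.

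The donor contrast of labels rests on 1 library, the migrating cells on 2, and the keratinocyte and host values on 1 library each. Donor BMT 3 gave 51 resident mLC and 82 Mono cells, so its lowest values rest on few UMIs.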
